A study of Homo sapiens with 32 samples.

Results

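The genes described here are 47 listed genes of DNA replication and mitosis, 23 that act at the entry into and during S phase and 24 that act in mitosis. They were taken by symbol from a list of known cell cycle genes, and all 47 were found among the 28278 gene symbols of the count tables and, by Ensembl gene, among the 60199 genes of the knockdown table. Of the 47, the 5 genes SGO1, PTTG1, ESPL1, CDCA5 and ESCO2 act directly on the cohesion or separation of sister chromatids. RNA was sequenced from 32 libraries of 3 human Ewing sarcoma cell lines, to compare cells that have or lack a cohesin paralog or a subunit of the Polycomb complex PRC2.

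All A673 KO clones derived from a clone that carries a doxycycline-inducible Cas9 at the AAVS1 locus (iCas9, called the WT clone), and each KO library was 1 clone. The controls were libraries of this WT clone and of parental A673 cells, whose genotype is WT without the Cas9. Experiment 1 held 2 WT clone libraries, 1 parental library and 2 STAG2ko clones. Experiment 2 held 2 WT clone libraries, 1 parental library and 3 clones each of STAG2ko, EZH2ko and SUZ12ko. Experiment 3 held 1 WT clone library, 1 parental library and 3 STAG1ko clones. In experiment 4, A673 cells were mock transfected or transfected with siRNA against STAG2, with 3 libraries of each. The isogenic pairs had 1 library per arm, all 4 labelled iCas9. In SK-N-MC, a WT library was set against a STAG2ko library. In A4573, which lacks STAG2, the library labelled WT was set against a clone in which STAG2 was restored (STAG2 KI) by Cas9, an oligonucleotide template and puromycin selection. Nothing in the labels says that the libraries of the WT clone came from separate cultures. The p-values measure the spread between libraries within groups, and the part of it that lies between WT clone libraries may be technical.

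Cohesin is a ring of protein subunits that holds sister chromatids together from their replication until anaphase and also forms loops of chromatin, and it contains either STAG1 or STAG2. EZH2, the methyltransferase, and SUZ12 are core subunits of PRC2, which deposits a repressive methyl mark on histone H3. In G1 phase, CDC6 and CDT1 load the helicase made of MCM2 to MCM7 onto origins of replication. CDC45 and the GINS proteins then activate it, cyclin E with CDK2 drives the step, and E2F factors turn on the genes. In mitosis, cyclins A and B with CDK1, Polo and Aurora kinases and the spindle checkpoint act in turn, and separase (ESPL1) cuts cohesin once CDC20 has led to the removal of securin (PTTG1).

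Promoters are shown first, because replication and mitosis genes are the classes known to carry different promoter elements, E2F sites and the cell cycle homology region (CHR) with CCAAT boxes. The RefSeq promoter table (GRCh38.p14, 250 bases before to 50 bases after each gene's start, 300 in all) held 39 of the 47 genes, 18 of replication and 21 of mitosis. Both strands were searched for the E2F letters TTTCCCGC, TTTGGCGC, TTTCGCGC or TTTGCCGC, the CHR letters TTTGAA or TTCGAA and the letters CCAAT, and the sets can overlap. The E2F letters were in 15 of 18 replication promoters (83.3%), 3 of 21 mitosis promoters (14.3%) and 3.33% of all 27305 promoters. CHR letters were in 1 of 18 (5.56%) and 15 of 21 (71.4%), against 16.6% of all promoters. CCAAT was in 61.1% of replication and 85.7% of mitosis promoters, against 35.7% of all. These matches are descriptions of letters and not of binding.

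The 4 promoters printed belong to the genes with the lowest adjusted p of those that passed the test and are in that table. They lie in GRCh38.p14 at chr1:214602945-214603244 (+ strand) for CENPF, chr15:40160819-40161118 (+ strand) for BUB1B, chr17:40417847-40418146 (− strand) for TOP2A and chr2:135876394-135876693 (− strand) for MCM6. Each is written 5′ to 3′ on the strand of its gene, and capitals mark the letters of a match on either strand.
CENPF: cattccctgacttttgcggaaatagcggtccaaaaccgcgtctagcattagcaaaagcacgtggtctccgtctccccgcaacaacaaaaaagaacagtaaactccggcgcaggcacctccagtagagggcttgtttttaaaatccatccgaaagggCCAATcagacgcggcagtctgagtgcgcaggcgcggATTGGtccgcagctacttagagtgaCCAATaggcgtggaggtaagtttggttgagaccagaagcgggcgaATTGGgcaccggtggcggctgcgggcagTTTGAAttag
BUB1B: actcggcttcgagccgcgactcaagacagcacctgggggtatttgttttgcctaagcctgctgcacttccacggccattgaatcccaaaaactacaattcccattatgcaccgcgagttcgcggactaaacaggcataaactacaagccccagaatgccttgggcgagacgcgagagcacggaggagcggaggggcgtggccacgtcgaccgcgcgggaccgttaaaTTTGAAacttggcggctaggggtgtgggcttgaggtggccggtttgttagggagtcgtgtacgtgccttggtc
TOP2A: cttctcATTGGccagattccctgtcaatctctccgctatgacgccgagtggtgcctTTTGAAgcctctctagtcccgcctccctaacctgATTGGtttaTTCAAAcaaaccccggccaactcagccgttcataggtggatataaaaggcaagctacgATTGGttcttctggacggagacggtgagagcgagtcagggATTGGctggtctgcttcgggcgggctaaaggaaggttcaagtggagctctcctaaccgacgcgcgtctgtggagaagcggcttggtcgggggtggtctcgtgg
MCM6: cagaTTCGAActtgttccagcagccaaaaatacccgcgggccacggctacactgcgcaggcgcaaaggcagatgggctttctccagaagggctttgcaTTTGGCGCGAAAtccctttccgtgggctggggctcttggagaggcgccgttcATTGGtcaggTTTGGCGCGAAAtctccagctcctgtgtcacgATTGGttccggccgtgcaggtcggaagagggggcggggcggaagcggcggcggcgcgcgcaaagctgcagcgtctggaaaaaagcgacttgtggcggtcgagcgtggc
CENPF had 4 CCAAT matches and 1 CHR match, BUB1B 1 CHR match, TOP2A 4 CCAAT and 2 CHR matches, and MCM6 4 E2F matches, which overlap in pairs, with 2 CCAAT matches and 1 CHR match.

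Libraries of the A673 clones held 15734628 to 20663679 counts, those of the isogenic pairs 29322507 to 32261248, and 6852340 to 8184632 reads per library were recovered for the knockdown. Levels are given as CPM, the count of a gene relative to the TMM-scaled total of its library, and are compared only within a gene. The Ewing sarcoma line markers NKX2-2, NR0B1, STEAP1, LIPI and PRKCB had between 25.2 and 755 CPM in every clone library, whereas CD99 had 0 counts in every count library and values of 3723.36 to 6706.91 in the knockdown table. Leukocyte, epithelial and endothelial markers reached at most 4.15 CPM in the clones. In the isogenic pairs, the leukocyte marker PTPRC had 58.15 CPM in the SK-N-MC STAG2ko library and 3 CPM in SK-N-MC WT, while the T cell marker CD3E had at most 0.03 CPM in both. The epithelial marker EPCAM had 9.36 CPM (286 counts) in the same STAG2ko library and 0.82 CPM (27 counts) in WT, and the endothelial marker CDH5 3.21 and 1.18 CPM. The part of these markers in the SK-N-MC values was not tested. The exons of 16 of the 47 genes overlap those of another annotated gene in GENCODE release 44 (such as MCM7 with AP4M1, CDK2 with PMEL, BUB1B with PAK6 and KIF20A with BRD8 and CDC23), and as the libraries are not directional, their reads cannot be told apart by strand.

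The targeted genes differed in how far they fell. STAG2 had 254.56 to 358.48 CPM in the 6 controls of experiments 1 and 2 (median 294.1), and 68.91, 59.16 and 63.38 CPM in STAG2ko clones 3, 5 and 2 of experiment 2. In experiment 1, the library named 5 had 42.17 CPM and the library named 24 had 183.04 CPM, above every other STAG2ko clone. In experiment 3, STAG1 had 69.15 CPM in parental cells and 57.39 CPM in the WT clone. The library labelled STAG1ko 1 had 61.11 CPM, between the controls, whereas libraries 5 and 7 had 14.99 and 33.04 CPM. EZH2 was at 45.54, 54.91 and 28.25 CPM in the EZH2ko clones and 171.28 to 193.12 CPM in their controls. SUZ12 was at 15.81, 11.27 and 20.5 CPM in the SUZ12ko clones and 59.93 to 66.62 CPM in their controls. A level of mRNA does not by itself show whether a frameshifted protein is made.

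With both experiments fitted together, STAG2 loss in A673 clones moved no gene of the 47 past the test. This held with edgeR and with DESeq2, while 12.4% of all 13574 genes tested did so (6.67% higher and 5.76% lower). With edgeR at an unadjusted p below 0.05 there was 1 gene, GINS4, a subunit of the helicase activator, with a log2 fold change of 0.32 (SE 0.144, edgeR adjusted p = 0.185), against 26.6% of all genes (15% higher). The median log2 fold change of the 47 was 0.03, beside 0.04 for all genes, and single genes lay between −0.20 and 0.45. In bulk RNA, fewer cells in a phase of the cycle and less RNA of these genes per cell cannot be told apart.

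CCNE1, a cyclin E gene, had the highest log2 fold change, 0.45 (SE 0.306, edgeR adjusted p = 0.384). Its controls ranged from 3.596 to 10.58 CPM with a median of 6.591, and the 5 KO clones from 4.382 to 13.17 CPM with a median of 8.115. MCM3, a helicase subunit, had the lowest, −0.20 (SE 0.151, edgeR adjusted p = 0.452), with 335.5 to 561.9 CPM in controls (median 413.8) and 266.1 to 416.1 CPM in KO clones (median 391.8). ESCO2, described with the sister chromatid genes, had the second highest value, 0.34 (SE 0.339, edgeR adjusted p = 0.584). The groups overlapped for these genes. They overlapped for all 47 genes, whereas 3.29% of all genes had every KO clone above every control and 4.94% every KO clone below.

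The group medians were also small. The 6 MCM genes had a median of −0.11 and all 6 lay below 0, the cyclin E, CDK2 and E2F genes had 0.22, the mitotic cyclins with CDK1 had 0.00 (−0.0018), the spindle checkpoint genes 0.14 and the mitotic kinases with CDC20 −0.09. CCNE2, the other cyclin E gene, had the second lowest value, −0.14 (SE 0.554, edgeR adjusted p = 0.917), and its level ranged from 0.7825 to 20.48 CPM among KO clones. The lowest of these was clone 5 of experiment 2. Without this clone 2 genes passed the test, CCNE1 at 0.66 (edgeR adjusted p = 0.0496) and RFC3, a subunit of the clamp loader, at 0.39 (edgeR adjusted p = 0.0203), and the median was 0.13, while 14.9% of all 13670 genes were called higher.

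The joint value near 0 combined opposite directions in the 2 experiments. In experiment 1, 9 genes passed the test and all 9 were higher in the STAG2ko clones, while 12% of all 14145 genes were called higher and 13.9% lower (edgeR). When the 2 WT clone libraries of this experiment, which were barely further apart than sampling noise, were summed and counted as 1, a setting chosen after seeing the data, 0 of the 47 passed (edgeR; 11 had an unadjusted p below 0.05, all higher), and 1.65% of all 13847 genes were called higher. The 9 calls then had edgeR adjusted p of 0.0953 to 0.172, and the median was 0.42 for replication genes and 0.04 for mitosis genes. All 9 were replication genes, and of the 24 mitosis genes 0 passed (edgeR; at an unadjusted p below 0.05 there was 1, higher, against 21.3% of all genes). On the log2 scale, the 23 replication genes had a median change of 0.50, all above 0, and the 24 mitosis genes of 0.10. In experiment 2, 0 of the 47 genes passed (edgeR; 3.69% of 13383 genes did), and 10 had an unadjusted p below 0.05, all lower, against 10.7% of all genes. There the median was −0.39 for replication genes, 22 of 23 below 0, and −0.02 for mitosis genes.

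MCM5, a helicase subunit encoded on chromosome 22 (35400134 to 35425431), had the lowest adjusted p in experiment 1. Its level was 234.86, 238.59 and 261.23 CPM in the controls and 333.92 and 396.94 CPM in the STAG2ko libraries, a log2 fold change of 0.58 (SE 0.118, edgeR adjusted p = 0.0229). In experiment 2 it was 462.3, 406.17 and 373.56 CPM in the controls and 303.13, 153.69 and 296.57 CPM in clones 3, 5 and 2, a log2 fold change of −0.68 (SE 0.253, edgeR adjusted p = 0.167). The groups did not overlap in either experiment, and the controls of experiment 2 stood above every control of experiment 1.

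E2F1, the founding member of the activating E2F factors, had 78.13, 79.69 and 99.55 CPM in the controls of experiment 1 and 126.46 and 161.56 CPM in the KO libraries (log2 fold change 0.75, SE 0.163, edgeR adjusted p = 0.0262). In experiment 2 its controls had 162.5, 146.57 and 123.71 CPM and its KO clones 102.6, 75.33 and 111.57 CPM (−0.53, SE 0.175, edgeR adjusted p = 0.132). E2F2, a close relative, went from 44.32, 41.56 and 67.88 CPM to 96.37 and 103.72 CPM in experiment 1 (0.97, SE 0.226, edgeR adjusted p = 0.031). In experiment 2 it had 61.62, 60.37 and 70.58 CPM in controls and 44.4, 44.92 and 47.53 CPM in KO clones (−0.44, SE 0.121, edgeR adjusted p = 0.09). Both factors were apart from their controls in each experiment, upwards in experiment 1 and downwards in experiment 2.

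The other 6 genes called in experiment 1 were MCM2 at 0.51, CDC6 at 0.90, GINS4 at 0.72, PCNA, the sliding clamp, at 0.87, POLA1, the catalytic subunit of polymerase alpha, at 0.48 and CCNE1 at 1.04 on the log2 scale, with edgeR adjusted p between 0.0263 and 0.0467. In experiment 1, 20 of the 47 genes had both KO libraries above the 3 controls (29.5% of all genes) and 1 had both below (32.4%). In experiment 2, 17 had all 3 KO clones below the controls (19.6%) and 1 had all above (13.7%). The same 12 genes were apart upwards in experiment 1 and downwards in experiment 2: MCM2, MCM4, MCM5, MCM7, CDT1, CDC45, GINS2, GINS3, POLE, E2F1, E2F2 and CDCA5. How many of all genes were apart in this way was not counted, so the 12 have no share of all genes beside them.

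The difference between the experiments was tested as an interaction, and the tools differed. With edgeR, 0 of 14616 genes passed (0%), and so 0 of the 47, although 30.7% had an unadjusted p below 0.05. Of the 47 genes, 21 had an unadjusted p below 0.05 with a lower effect in experiment 2 (14.9% of all genes) and 1 with a higher effect (15.8%), and the median difference was −0.97 for replication genes, −0.24 for mitosis genes and 0.07 for all genes. With DESeq2, 14 of the 47 passed, all lower in experiment 2, against 7.49% of 14154 genes called lower: CDC45, CDCA5, CDK2, E2F1, E2F2, GINS2, GINS3, GINS4, MCM2, MCM4, MCM5, MCM6, MCM7 and POLE. Without clone 5 of experiment 2, edgeR called 6 of the 47 lower (E2F1, E2F2, GINS2, MCM2, MCM4 and MCM5), against 2.79% of all genes, and without clone 2 it called 8, against 4.22%.

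The controls differed between experiments as well. For 26 of the 47 genes, 18 of them replication genes, the 3 controls of experiment 2 were all above every control of experiments 1 and 3. The mean control level in experiment 2 was above that in experiment 1 by a median of 0.66 on the log2 scale for replication genes and 0.27 for mitosis genes. Neither the count nor these medians were computed over all genes. The levels were scaled by TMM over all clone libraries together, but how many other genes shifted as far in the controls was not counted. In experiment 1 the parental library stood above the WT clone libraries, with a median over mitosis genes of 0.33 against −0.17 and −0.16 relative to the control mean. The part of these control levels in the opposite directions was not tested, and clones and experiments cannot be told apart. By the labels' clone numbers no STAG2ko clone was in both experiments, but a column named 5 stands in both tables and the columns of experiment 1 could not be matched to those numbers.

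**Figure D1:**
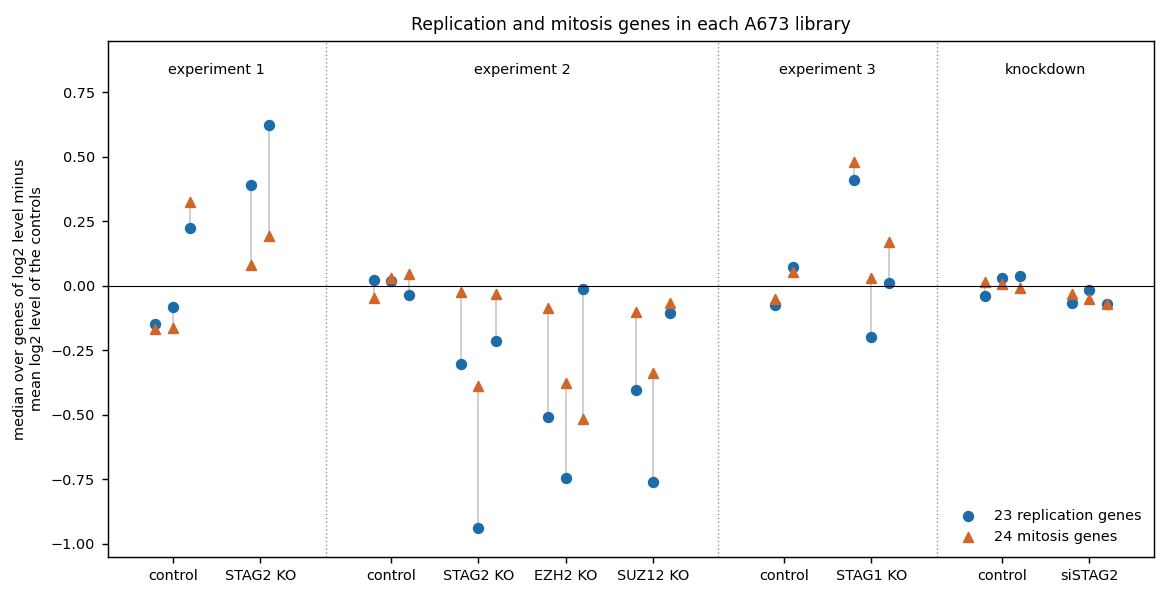
Each point is 1 A673 library (horizontal axis: experiment and group), and its height is the median over the 23 replication genes (circles) or the 24 mitosis genes (triangles) of the log2 level minus the mean log2 level of that experiment's controls. The replication medians of the STAG2ko libraries are 0.39 and 0.62 in experiment 1 and −0.30, −0.94 and −0.21 in experiment 2.

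Per library, the replication median relative to the controls was 0.39 for library 5 and 0.62 for library 24 in experiment 1, above the highest control at 0.22. Library 24 had both the higher STAG2 level of the KO libraries and the higher replication median. In experiment 2 it was −0.30, −0.94 and −0.21 for clones 3, 5 and 2, with the 3 controls between −0.04 and 0.02. The mitosis medians of the same clones were −0.02, −0.39 and −0.03. Clone 5 was the lowest in both, and for CDC6 with CDT1 its median reached −1.59.

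Knockdown of STAG2 by siRNA in A673 lowered 7 of the 47 genes and raised 1, by at most 1.21-fold. Among all 12060 genes tested, 11% were lower and 9.54% higher (20.5% in all), by limma on log2(value + 1). The 47 genes had a median log2 fold change of −0.05, beside 0.01 for all genes. STAG2 itself had values of 1068.45, 1089.69 and 991.98 in the controls and 179.87, 144.23 and 152.63 after siSTAG2, a log2 fold change of −2.72 (SE 0.0854, limma adjusted p = 4.01e-18). STAG1 had values of 297.37, 317.74 and 305.07 in the controls and 328.22, 388.31 and 423.12 after siSTAG2 (0.30, SE 0.0908, limma adjusted p = 0.019).

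Of the genes that fell, 6 were mitosis genes. CENPF, a kinetochore protein encoded on chromosome 1 (214603185 to 214664574), had values of 3546.56, 3547.23 and 3599.85 in controls and 2945.6, 2980.02 and 2915.47 after siSTAG2, a log2 fold change of −0.27 (SE 0.0533, limma adjusted p = 0.000469). BUB1B, the checkpoint protein BubR1 encoded on chromosome 15 (40161023 to 40221123), had 798.71, 736.53 and 783.35 in controls and 659.21, 636.83 and 644.34 after siSTAG2 (−0.26, SE 0.0666, limma adjusted p = 0.00687). The 3 siSTAG2 values lay below the 3 controls for both genes, and the spread within each group was smaller than the gap.

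TOP2A, the topoisomerase that untangles sister chromatids, had values of 5262.17, 4946.32 and 5270.85 in controls and 4315.95, 4792.88 and 4198.35 after siSTAG2 (−0.22, SE 0.0586, limma adjusted p = 0.00823). MKI67, the Ki-67 protein, had 2991.84, 2662.76 and 2814.53 in controls and 2508.91, 2575.06 and 2420.86 after siSTAG2 (−0.17, SE 0.0579, limma adjusted p = 0.0343). CDK1, the mitotic kinase, had 1558.35, 1567.86 and 1524.37 against 1441.74, 1315.82 and 1331.18 (−0.19, SE 0.0595, limma adjusted p = 0.0261). For these 3 genes the groups did not overlap either, with gaps that were a smaller part of the level than for CENPF.

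KIF20A, a kinesin of the central spindle, had values of 530.89, 596.93 and 548.15 in controls and 483.98, 413.83 and 525.52 after siSTAG2 (−0.24, SE 0.0831, limma adjusted p = 0.0406). Its highest siSTAG2 value was just under the lowest control. The replication gene that fell was MCM6, with 856.85, 915.72 and 867.98 in controls and 745.44, 768.86 and 763.16 after siSTAG2 (−0.21, SE 0.0641, limma adjusted p = 0.0188). CDK2, the partner of cyclin E, rose from 1564.07, 1677.25 and 1678.88 to 1923.87, 1942.67 and 1769.76 (0.20, SE 0.0597, limma adjusted p = 0.0203). Groups were apart downwards in 12 of the 47 genes (17.6% of all genes) and upwards in 3 (17.4%). Leaving out 1 library at a time gave 3 to 12 calls, with 3 without siSTAG2 replicate 2, 4 without siSTAG2 replicate 3, 5 without control replicate 1 or 3 and 12 without control replicate 2, and the calls of CENPF and BUB1B remained in each.

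**Figure D2:**
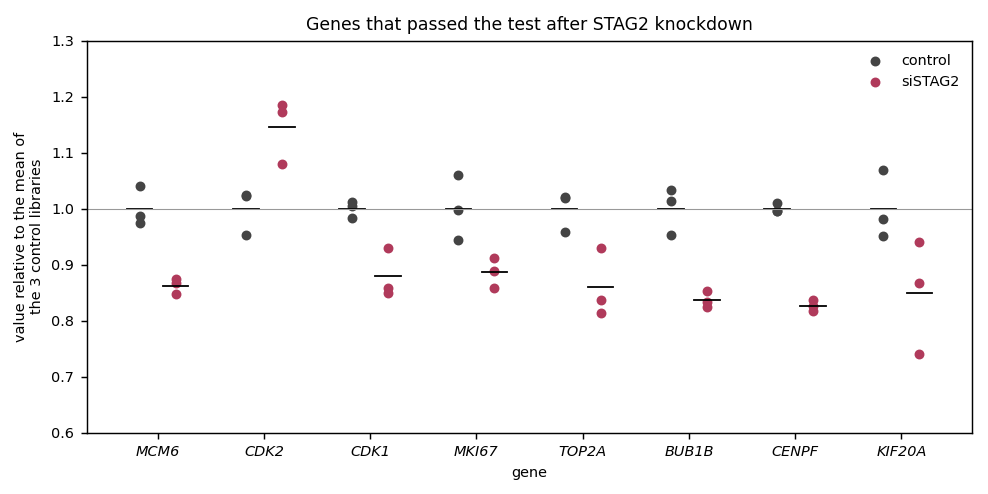
Values of the 8 genes that passed the test after STAG2 knockdown (horizontal axis), each divided by the mean of its 3 controls (vertical axis, a ratio that does not start at 0). Grey points are control and red points siSTAG2 libraries, and lines are means. Every siSTAG2 value is below the controls for MCM6, CDK1, MKI67, TOP2A, BUB1B, CENPF and KIF20A, and above them for CDK2.

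In A4573, the library that lacks STAG2 (labelled WT) had higher levels of all 47 genes than the library with STAG2 restored. With 1 library per arm, this is a difference between 2 libraries with no replicate check. A change due to STAG2 cannot be told apart from any other difference between the cells labelled WT and the selected STAG2 KI clone. STAG2 itself was at 34.12 and 86.91 CPM. The median ratio was 1.52 on the log2 scale, or 2.87-fold, beside 0.00 (0.0015) for all 16124 genes compared. Of the 47 genes, 46 were more than 1.5-fold higher without STAG2, against 18.4% of all genes, and 40 were more than 2-fold higher, against 7.76%.

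CCNE2 had the highest ratio, with 53.91 CPM (1624 counts) without STAG2 and 8.47 CPM (266 counts) with STAG2, a log2 ratio of 2.66 with an exact 95% interval of 2.48 to 2.86. MKI67 was next, with 294.64 CPM and 46.76 CPM, a log2 ratio of 2.65 (2.58 to 2.74). The lowest ratios were those of MCM3, with 618.28 CPM and 570.71 CPM (0.12, 0.09 to 0.15), and of RFC4, with 190.9 CPM and 123.93 CPM (0.62, 0.56 to 0.68). MCM3 alone of the 6 MCM genes was within 1.5-fold. Reads were not marked with molecular identifiers, so that these intervals cover counting error only.

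By role, the replication genes had a median log2 ratio of 1.2 and the mitosis genes of 1.63. The MCM genes had a median of 1.13, from 0.12 for MCM3 to 1.63 for MCM4. CDC45 and the GINS genes had 1.57, from 0.72 for GINS4 to 2.18 for GINS2. The clamp, clamp loader and polymerase genes had 0.96, with PCNA highest at 1.98. Among the mitosis genes, the mitotic kinases with CDC20 had 1.90, with AURKB, the kinase of the chromosomal passenger complex, highest at 2.42. The mitotic cyclins with CDK1 had 1.64, with CCNB1 highest at 2.18, the centromere proteins and kinesins 1.78 and the spindle checkpoint genes 1.40, with MAD2L1 lowest at 0.81. The ranges of the role groups overlapped one another.

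In SK-N-MC, the same ratio was small and mostly in the other direction. The median log2 ratio of the STAG2ko over the WT library was −0.13, beside −0.01 for all 16413 genes, and 36 of the 47 lay below 0. More than 1.5-fold higher were 0 genes (18% of all genes), and more than 1.5-fold lower were 2 (19.5%), ESPL1 and MKI67. MKI67 had 240.92 CPM in STAG2ko and 364.88 CPM in WT, a log2 ratio of −0.60 (exact 95% interval −0.64 to −0.56). POLE, the catalytic subunit of polymerase epsilon, was the highest, at 333.94 and 275.17 CPM (0.28, 0.24 to 0.32). The STAG2 mRNA was at 184.21 CPM in the STAG2ko and 292.8 CPM in the WT library. The difference between the 2 pairs could not be tested with these 4 libraries.

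**Figure D3:**
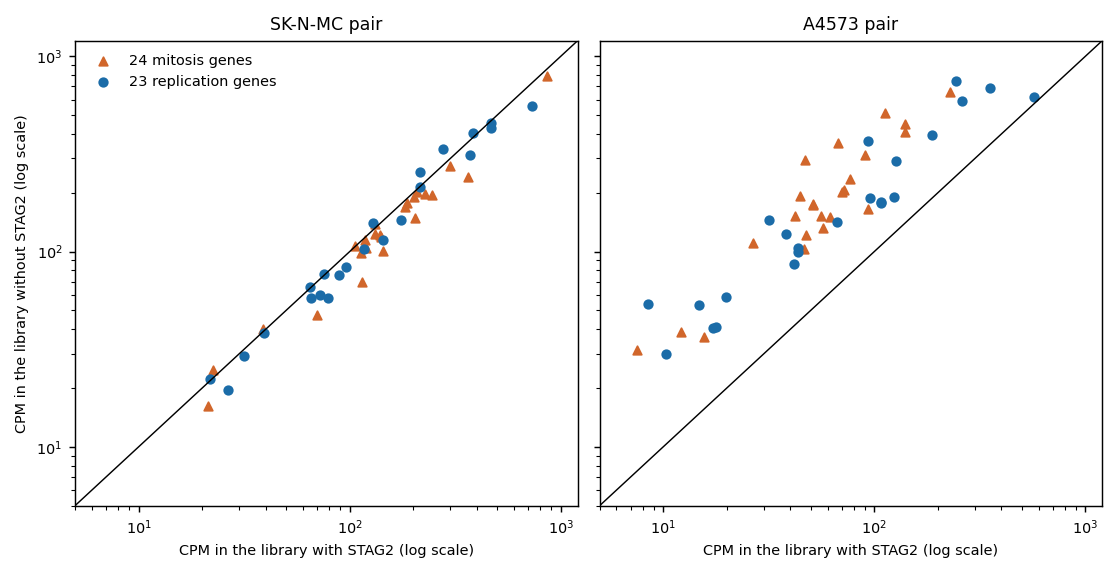
Levels of the 47 genes (circles, 23 replication genes; triangles, 24 mitosis genes) in CPM on log axes, with the library that has STAG2 on the horizontal and the library that lacks it on the vertical axis, for SK-N-MC (left) and A4573 (right). The line marks equal levels, and in A4573 all 47 points lie above it while in SK-N-MC 36 lie below.

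STAG1 loss in A673 raised 1 of the 47 genes, TTK, while 5.27% of 14373 genes were called (2.77% higher; edgeR). TTK, the checkpoint kinase MPS1 encoded on chromosome 6 (80003887 to 80042527), had 85.59 CPM in parental cells and 92.12 CPM in the WT clone. It had 175.26, 143.07 and 149.32 CPM in libraries 1, 5 and 7, a log2 fold change of 0.81 (SE 0.118, edgeR adjusted p = 0.0268). All 3 libraries labelled STAG1ko were above both controls. The call was lost when library 7 (edgeR adjusted p = 0.0546), the parental (0.262) or the WT clone library (0.15) was left out, and held without library 1 (log2 fold change 0.73, edgeR adjusted p = 0.0166).

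The 47 genes had a median log2 fold change of 0.15 in the libraries labelled STAG1ko, beside −0.00 (−0.0028) for all genes, and 40 of 47 lay above 0. All 24 mitosis genes lay above 0. CCNE2 had the second highest value, 0.73 (SE 0.216, edgeR adjusted p = 0.107), with 7.18 and 8.87 CPM in controls and 15.59, 11.45 and 12.93 CPM in the libraries labelled STAG1ko. E2F1 had the lowest, −0.19, with 90.25 and 105.86 CPM in controls and 104.8, 67.56 and 85.31 CPM in those labelled STAG1ko, and CDT1 the next, −0.18, with 94.14 and 102.02 CPM against 97.48, 71.64 and 91.77 CPM. With edgeR, 6 genes had an unadjusted p below 0.05, all higher (12.2% of all genes): TTK, KIF20A, CCNA2, CCNE2, BUB1 and KIF11. Groups were apart upwards in 14 of the 47 (22.1% of all genes) and downwards in 0 (24.4%).

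The library labelled STAG1ko 1, whose STAG1 mRNA was between the controls, had the highest medians relative to controls, 0.41 for replication and 0.48 for mitosis genes. Libraries 5 and 7 had −0.20 and 0.01 for replication genes and 0.03 and 0.17 for mitosis genes. Without library 1 the median of the 47 genes was −0.02, with 23 above 0 and 24 below, and that of the mitosis genes was 0.12.

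The effects of STAG2 and STAG1 loss were compared directly over the libraries of experiments 1 to 3, and 0 of the 47 genes differed with edgeR or with DESeq2, while 6.11% of 14696 genes did (edgeR). With edgeR, 2 had an unadjusted p below 0.05, both lower (11.2% of all genes), TTK with a difference of −0.77 (edgeR adjusted p = 0.0993) and KIF20A with −0.46. TTK passed when STAG2ko clone 5 (−0.68, edgeR adjusted p = 0.047) or clone 2 (−0.89, edgeR adjusted p = 0.0297) of experiment 2 was left out. The median difference, STAG2 loss minus STAG1 loss, was −0.16, beside 0.00 (0.0019) for all genes. Without the library labelled STAG1ko 1 it was −0.02, with 0.11 for replication and −0.11 for mitosis genes.

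Loss of PRC2 lowered 1 of the 47 genes in each KO. In EZH2ko clones 15.7% of 15130 genes were called, 12% higher and 3.69% lower, and in SUZ12ko clones 20.6%, 14.7% higher and 5.87% lower (edgeR). The clones of EZH2ko, SUZ12ko and STAG2ko in experiment 2 share the same 3 controls, so that their values are not independent.

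POLE, encoded on chromosome 12 (132623753 to 132687376), was the gene called in EZH2ko. It had 247.74, 223.07 and 305.8 CPM in controls and 164.63, 130.83 and 185.26 CPM in EZH2ko, a log2 fold change of −0.61 (SE 0.173, edgeR adjusted p = 0.0354). In SUZ12ko it had 193.78, 150.29 and 170.94 CPM and did not pass (edgeR adjusted p = 0.0525). The call in EZH2ko was lost, with edgeR adjusted p of 0.0721 to 0.127, without WT clone replicate 1, the parental library or EZH2ko clone 1 or 2. MCM7, encoded on chromosome 7 (100092233 to 100101940), was the gene called in SUZ12ko, with 921.54, 845.42 and 750.71 CPM in controls and 553.23, 442.26 and 583.39 CPM in SUZ12ko (−0.60, SE 0.182, edgeR adjusted p = 0.0364). In EZH2ko it had 527.85, 488.21 and 596.55 CPM and did not pass (edgeR adjusted p = 0.0605). The call in SUZ12ko was lost, with edgeR adjusted p of 0.0533 to 0.15, without either WT clone library, EZH2ko clone 1 or SUZ12ko clone 1 or 2. For both genes every EZH2ko and SUZ12ko clone was below every control.

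The median log2 fold change of the 47 genes was −0.24 in EZH2ko, with 41 below 0, and −0.19 in SUZ12ko, with 37 below 0, beside 0.04 and 0.01 for all genes. When libraries were scaled by their totals alone these medians were −0.08 and −0.01. The MCM genes had a median of −0.35 in EZH2ko and −0.41 in SUZ12ko, and all 6 lay below 0 in each. With edgeR, 5 genes were lower at an unadjusted p below 0.05 in EZH2ko (10% of all genes): POLE, MCM7, CCNB1, CCNB2 and CDC20. In SUZ12ko 4 were lower (12.8%) and 1 higher (21.3%), TOP2A, with 309.77, 352.74 and 298.49 CPM in controls and 417.25, 351.93 and 406.65 CPM in SUZ12ko (0.36, SE 0.141, edgeR adjusted p = 0.0916). TOP2A passed, higher, with scaling by library size only (0.54, edgeR adjusted p = 0.0138), with only the SUZ12ko and control libraries fitted (0.38, edgeR adjusted p = 0.0401) and with DESeq2 (0.37, adjusted p = 0.0484). Groups were apart downwards in 16 of the 47 genes in EZH2ko (24.9% of all genes) and 22 in SUZ12ko (27.2%), and upwards in 0 of the 47 in each (23.1% and 23.6%).

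CCNE1 had the highest log2 fold change in EZH2ko, 0.37 (SE 0.462), with 8.16, 8.67 and 10.58 CPM in controls and 5.89, 9.12 and 18.35 CPM in clones 1, 2 and 3. CCNE2 was next at 0.30 (SE 0.84), with 16.37, 18.3 and 19.61 CPM in controls and 14.75, 8.47 and 40.1 CPM in the clones. The groups overlapped for both, and clone 3 was the high one. In SUZ12ko, CCNE1 had the second highest value, 0.33 (SE 0.462), with 10.72, 7.03 and 15.13 CPM, and overlapped with its controls. EZH2ko clone 3 differed from the others in its pattern too, with a replication median of −0.01 and a mitosis median of −0.52, where clones 1 and 2 had −0.51 and −0.75 for replication and −0.08 and −0.38 for mitosis genes. The SUZ12ko clones had −0.41, −0.76 and −0.11 for replication and −0.10, −0.34 and −0.07 for mitosis genes.

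EZH2ko and SUZ12ko clones were not separated by any of the 47 genes with edgeR or DESeq2, and with edgeR 0 had an unadjusted p below 0.05 (4.16% of all genes), while 1 of 15130 genes passed (0.00661%). STAG2ko clones of experiment 2 were compared with the 6 PRC2 clones, and 0 of the 47 passed with edgeR, against 29.7% of all genes. Here 3 genes were higher in STAG2ko at an unadjusted p below 0.05 (CENPE, BUB1 and ESCO2; 19.9% of all genes) and 3 lower (PLK1, ESPL1 and CDCA5; 21.1%). With DESeq2, CENPE (log2 difference 0.49) and ESCO2 (0.89) passed, against 13.8% of all genes called higher. With scaling by library size only, CDCA5 (−0.59), PLK1 (−0.55) and ESPL1 (−0.36) passed as lower (edgeR adjusted p of 0.0217 to 0.0496), against 16.8% of all genes called lower. Without STAG2ko clone 5, edgeR called 8 genes, all higher in STAG2ko: BUB1, CCNB1, CDK1, CENPE, ESCO2, KIF11, RFC3 and SGO1. There 18.5% of all genes were called higher.

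**Figure D4:**
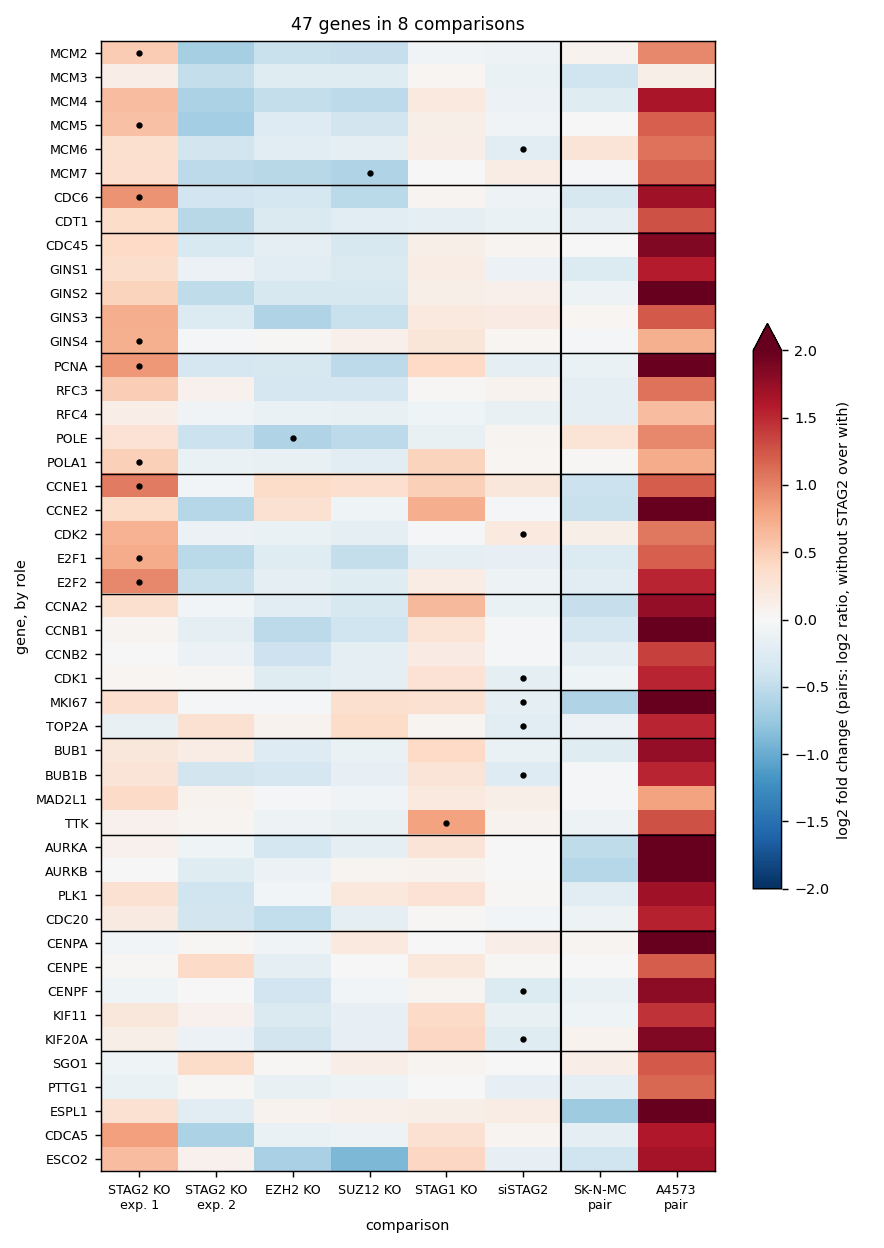
Log2 fold changes of the 47 genes (rows, grouped by role with lines between roles) in 6 replicated A673 comparisons and the log2 ratio without over with STAG2 in the 2 isogenic pairs (columns to the right of the thick line). Dots mark an adjusted p below 0.05, colours stop at 2 above 0, and the A4573 column is above 0 in all 47 rows.

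The 5 sister chromatid genes passed the test in no replicated A673 comparison (edgeR, limma for the knockdown), although each passed in at least 1 comparison under another setting. CDCA5 encodes sororin, which holds cohesin on replicated chromatids. It had 69.08, 65.89 and 116.39 CPM in the controls of experiment 1 and 135.61 and 158.53 CPM in the STAG2ko libraries, a log2 fold change of 0.81 (SE 0.266, edgeR adjusted p = 0.068). In experiment 2 its controls had 153.95, 146.44 and 169.08 CPM and STAG2ko clones 3, 5 and 2 had 124.12, 60.57 and 109.53 CPM (−0.63, SE 0.244, edgeR adjusted p = 0.177). It was apart from its controls in both experiments, in opposite directions. In the EZH2ko clones it had 129.05, 106.79 and 167.91 CPM, in SUZ12ko 136.17, 112.34 and 165.73 CPM, and in STAG1ko 89.02, 59.43 and 70.84 CPM against controls of 53.08 and 64.64 CPM. These groups overlapped with their controls.

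ESCO2 encodes the acetyltransferase that locks cohesin onto sisters during replication. It had 40.89, 49.98 and 36.18 CPM in the controls of experiment 2. EZH2ko clones had 29.45, 17.91 and 28.82 CPM (log2 fold change −0.65, SE 0.405, edgeR adjusted p = 0.302), and SUZ12ko clones 20.61, 15.91 and 28.02 CPM (−0.91, SE 0.407, edgeR adjusted p = 0.141). All 6 PRC2 clones were below the 3 controls. STAG2ko clones 3, 5 and 2 of experiment 2 ranged widely, with 44.24, 16.59 and 70.39 CPM. With only the SUZ12ko and control libraries fitted, the SUZ12ko value passed at −0.89 (edgeR adjusted p = 0.0143), and so it did without STAG2ko clone 5 (−0.91, edgeR adjusted p = 0.0204). In experiment 1 the controls had 14.21, 14.75 and 34.46 CPM and the STAG2ko libraries 29.86 and 35.25 CPM, and in experiment 3 controls had 16.35 and 18.72 CPM and STAG1ko libraries 29.17, 20.12 and 20.83 CPM (0.41, SE 0.206, edgeR adjusted p = 0.273).

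SGO1 encodes shugoshin, which protects cohesin at centromeres. It had 24.53, 28.82 and 29.47 CPM in the controls of experiment 2 and 34.43, 28.69 and 40.3 CPM in STAG2ko clones, and in experiment 1 26.1, 26.54 and 36.48 CPM in controls and 26.12 and 29.85 CPM in STAG2ko libraries. EZH2ko clones had 28.49, 26.81 and 24.27 CPM, SUZ12ko clones 27.21, 24.97 and 34.46 CPM and STAG1ko libraries 28.35, 21.86 and 24.26 CPM, against 21.01 and 26.61 CPM in the controls of experiment 3. Groups overlapped in all of these.

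PTTG1, securin, had 38.57, 42.4 and 59.44 CPM in the controls of experiment 1 and 42.06 and 42.72 CPM in STAG2ko. In experiment 2 it had 52.96, 52.6 and 55.45 CPM in controls and 56.57, 55.98 and 45.1 CPM in STAG2ko, and EZH2ko clone 3 was the low value of the experiment at 29.3 CPM. ESPL1, separase, had 111.31, 115.4 and 165.46 CPM in the controls of experiment 1 and 164.32 and 156.34 CPM in STAG2ko. In experiment 2 it had 130.67, 120.75 and 131.52 CPM in controls and 116.82, 105.74 and 96.39 CPM in STAG2ko clones, all below the controls (log2 fold change −0.21, SE 0.127, edgeR adjusted p = 0.349). With STAG1 lost, PTTG1 had a log2 fold change of 0.01 and ESPL1 of 0.12.

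After knockdown the log2 fold changes of the 5 genes ranged from −0.16 to 0.14. PTTG1 had values of 1282.9, 1222 and 1165.18 in controls and 1087.56, 1188.24 and 1012.39 after siSTAG2 (−0.16, SE 0.0665, limma adjusted p = 0.0899), and its groups overlapped. It passed without control replicate 2 (limma adjusted p = 0.0434), without siSTAG2 replicate 1 (limma adjusted p = 0.0307) and with a replicate block (limma adjusted p = 0.0444). ESPL1 had 254.48, 230.23 and 258.82 in controls and 274.44, 264.05 and 282.08 after siSTAG2 (0.14, SE 0.0906, limma adjusted p = 0.29), with no overlap. SGO1 was at 0.00 (SE 0.0819, limma adjusted p = 1). In A4573 all 5 were more than 2-fold higher in the library without STAG2, from 103.4 against 46.45 CPM for PTTG1 to 110.07 against 26.61 CPM for ESPL1. In SK-N-MC, ESPL1 went the other way, with 70.2 CPM in STAG2ko and 114.9 CPM in WT, a log2 ratio of −0.71 (exact 95% interval −0.79 to −0.63), and the other 4 were within 1.5-fold.

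**Figure D5:**
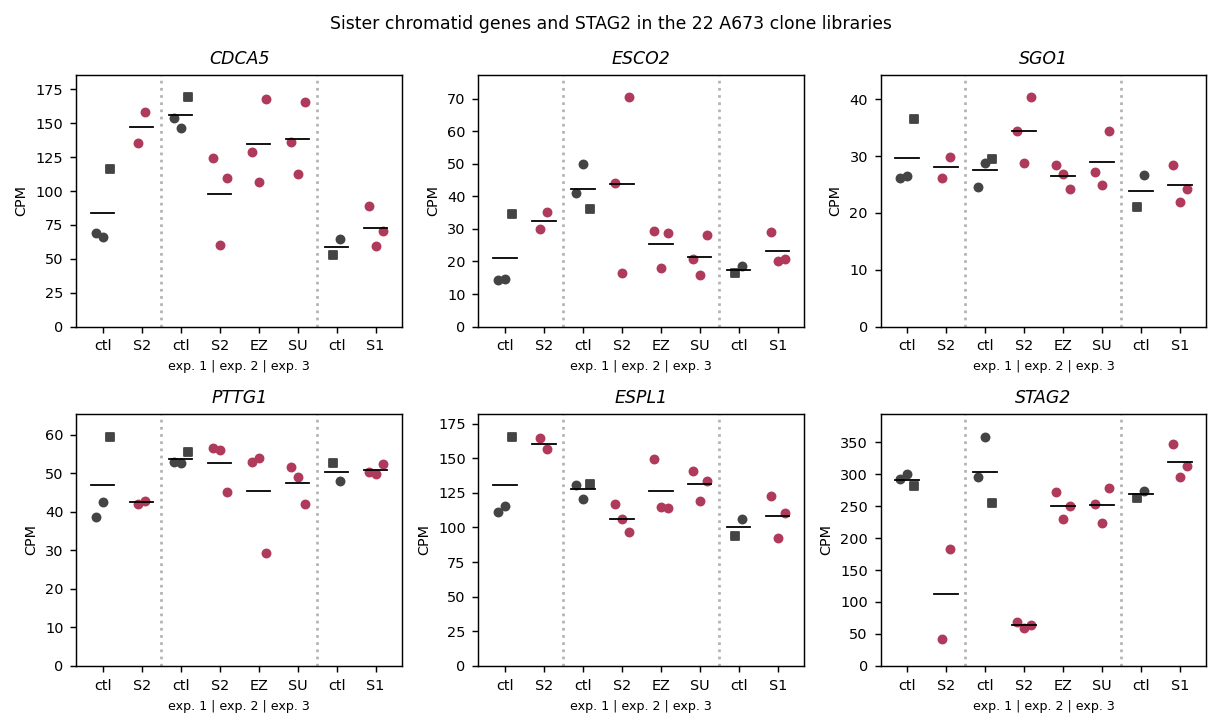
CPM of the 5 sister chromatid genes and of STAG2 in each of the 22 A673 clone libraries (vertical axis, from 0), by group on the horizontal axis: ctl, controls (circles, WT clone; squares, parental cells); S2, STAG2 KO; EZ, EZH2 KO; SU, SUZ12 KO; S1, STAG1 KO. Dotted lines separate experiments 1, 2 and 3, short lines are means, and CDCA5 lies above its controls in STAG2 KO of experiment 1 and below them in experiment 2.

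A further 127 genes of the same processes, in 3 lists, are described beside the 47 and were not tested as lists. In the A4573 pair, 39 of 40 other replication genes (median log2 ratio 1.08) and 61 of 61 other mitosis genes (1.41) were higher without STAG2. RRM2, the ribonucleotide reductase subunit of S phase, was at 377.85 and 44.76 CPM (3.08). The 26 genes of cell cycle entry and its transcription factors were divided, with 17 above 0 and a median of 0.37. CCND1, cyclin D1, was lower without STAG2, at 937.08 and 1633.58 CPM (−0.80), and CCND2, cyclin D2, at 42.69 and 120.17 CPM (−1.49).

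In STAG2ko clones of A673, 2 of 40 other replication genes fell (LIG1, the DNA ligase of lagging strand synthesis, at −0.57, and TIMELESS at −0.38), and 1 of 61 other mitosis genes fell, KIF22 at −0.37, against 5.76% of all genes called lower. Of the 25 entry genes tested, CCND3 rose by 1.23 and E2F5 by 0.68, and CCND1 fell by 0.56 on the log2 scale (edgeR adjusted p between 0.00247 and 0.0226 for these 6), against 6.67% of all genes called higher. CCND1 had 1896.89 to 2779.68 CPM in the controls and 1325.03 to 2040.7 CPM in the KO clones. In experiment 1 alone, with its WT clone libraries kept as 2, 7 of 40 other replication genes were called higher and 1 lower. Of 61 other mitosis genes 2 were higher and 2 lower, and of 25 entry genes 7 were higher and 1 lower. Among all genes 12% were called higher and 13.9% lower. In experiment 2 alone only LIG1 was called, lower, against 3.69% of all genes in either direction (edgeR). After knockdown, 14 of 61 other mitosis genes fell and 0 rose (limma; 2 were higher at an unadjusted p below 0.05), among them CDC25C, the phosphatase that activates CDK1, at −0.37 and ASPM, a spindle pole protein, at −0.32. Across all 12060 genes, the shares called were 11% lower and 9.54% higher. Of the 40 other replication genes 4 fell, led by TK1, thymidine kinase, at −0.45, and 2 rose (ORC4 at 0.30 and POLE3 at 0.15). Of the entry genes, E2F6 (0.39), CCND3 (0.38), E2F3 (0.33) and E2F4 (0.27) rose, and LIN52, a subunit of the DREAM and MuvB complexes (−0.58), and CCND1 (−0.20) fell (limma adjusted p between 0.000257 and 0.0297).

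In the libraries labelled STAG1ko 3 of these 127 genes rose (2.77% of all genes did), ORC3 by 0.74, CENPW by 0.69 and KIF18A by 0.48. Only 1 fell, MYC by 0.54 on the log2 scale, while 359 of all 14373 genes were called lower. In the direct comparison of the paralogs, ORC3 differed by −1.07 (edgeR adjusted p = 0.0111), KIF22 by −0.49 (0.0471) and MYC by 0.55 (0.023), as STAG2 loss minus STAG1 loss. In EZH2ko and SUZ12ko clones, CCND2 was at 32.28 to 69.95 CPM against at most 0.17 CPM in their controls (edgeR adjusted p of 3.27e-06 and 3.08e-06). In EZH2ko LIG1 (−0.63), TIMELESS (−0.58), FOXM1, a factor for mitosis genes (−0.58), CDC25B (−0.61), CENPM (−0.55) and KIF4A (−0.45) fell, against 3.69% of all genes called lower. In SUZ12ko 3 of 40 other replication genes, 1 of 61 other mitosis genes and 1 of 26 entry genes, CDK6 at −1.04, fell, against 5.87% of all genes called lower. Between STAG2ko clones of experiment 2 and the PRC2 clones, 5 of 40 other replication genes were higher in STAG2ko (edgeR). Of 61 other mitosis genes 9 were higher and 3 lower, and of 26 entry genes 5 were higher and 1 lower. Among all 15130 genes, 2085 were called higher and 2410 lower (29.7% in either direction).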

How the data were processed

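The labels and methods describe oligo-dT libraries prepared without strand and sequenced from 1 end. Per the submitters' processing notes, reads were aligned to hg38 by TopHat2 (2.0.0), with SAMtools (0.1.16) and Bowtie (0.12.7). The counting program is not given in the sources used here. The deposited values are whole counts of reads per gene symbol, except for the knockdown, where the authors' values are a signal, counts divided by 1 factor per library (100% of values came out as whole reads). All columns were used, and 0 were left out.

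Counts were tested with edgeR 4.0.16 in R 4.3.3 (quasi-likelihood test, TMM scaling, filterByExpr by group). STAG2 KO was fitted over experiments 1 and 2 with a term for the experiment, the PRC2 clones over all libraries of experiment 2 and STAG1 KO over experiment 3 alone. The knockdown was tested with limma 3.58.1 (trend) on log2(value + 1) for genes whose mean was 10 or more. The threshold was 0.05 on p-values adjusted by Benjamini-Hochberg over all genes. Isogenic pairs (at least 10 counts in the pair) have no test and are ratios of log2 CPM with a prior count of 2. DESeq2 1.42.0, other scalings, filters and pseudocounts and leaving out each library were the alternatives. The fits were tested on simulated data.

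The 47 genes, their roles and the 3 lists of 127 other genes were chosen with earlier results of these data known, and the lists are described and not tested. Named with values in each library are the targeted genes, the 5 sister chromatid genes, up to 8 called genes with the lowest adjusted p per comparison and, where fewer than 3 were called, the 2 highest and the 2 lowest. In the other lists, all genes called in these comparisons (not in the alternatives) are counted, and those named with values are examples. Libraries were grouped by the genotype in their labels. The columns of STAG2ko in experiment 1 and of STAG1ko could not be matched to single clone labels and stand for their group. In experiment 1, the 2 libraries of the WT clone were barely further apart than sampling noise (mean chi-square of 1.33 per gene, against 1.93 to 140 for the other pairs of libraries in a group) and were kept as 2, with their sum as an alternative, for the fit of experiment 1 alone one chosen after seeing the data.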

Additional observations from a re-analysis of the deposited data

Results flagged for a closer look

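Relative to each experiment's own controls, the effect of STAG2 loss on these genes went in opposite directions in experiments 1 and 2. The controls themselves differed as well. On the scale common to the clone libraries, replication medians of STAG2ko were 0.22 and 0.41 in experiment 1. In experiment 2 they were 0.19, −0.48 and 0.22 for clones 3, 5 and 2. As the mean over STAG2ko libraries of the per-library median relative to the controls, all 47 genes were at 0.33 in experiment 1 and −0.24 in experiment 2, a difference of −0.57. The 23 replication genes were at 0.51 and −0.48, a difference of −0.99, and the 24 mitosis genes at 0.14 and −0.15, a difference of −0.28. Every STAG2ko library of experiment 1 lay above 0 and every one of experiment 2 below 0 in each of the 3 sets. The controls overlapped with them for mitosis genes. There the parental library of experiment 1 was at 0.33, above STAG2ko libraries 5 and 24 at 0.08 and 0.19. In experiment 2, WT clone replicate 1 was at −0.05, below STAG2ko clones 3 and 2 at −0.02 and −0.03. For all 47 genes, the parental library of experiment 1 was at 0.27, above library 5 at 0.25. The difference of these scores was not tested, and the test of the difference per gene called 0 of the 47 with edgeR (22 at an unadjusted p below 0.05) and 14 with DESeq2. Among the 5 STAG2ko and the 6 control libraries of these experiments, each relative to its controls, no library stood apart by Dixon's test in the medians, in STAG2 or in the 5 sister chromatid genes. This test took libraries of both experiments together, so it could miss a library that stood apart within its own experiment. Within experiment 2, clone 5 had a mean chi-square per gene of 113 against clone 3 and 140 against clone 2. Between clones 3 and 2 it was 25.7.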

How the results depend on the processing

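Of the recomputed counts of called genes, medians and contrasts, 175 stayed close to the value reported and 48 moved, and of the single named genes 109 stayed and 33 kept their direction but no longer passed. No call changed direction, but the medians of STAG2 KO and STAG1 KO changed sign when 1 library was left out, the first to −0.03 without either WT clone library of experiment 1 and to −0.02 without STAG2ko library 24, the second to −0.02 without library 1. For STAG2 KO, experiment 1 alone gave 9 calls and a median of 0.33, or 0 calls and 0.2352 with its WT clone libraries summed (chosen after seeing the data), and leaving out 1 library at a time gave 0 to 2 calls and medians of −0.03 to 0.13, while DESeq2 and the other scalings and filters gave 0 calls. For EZH2 KO there were 4 calls with DESeq2, 3 with only its own and the control libraries fitted, 0 with the WT clone as the only control and 0 with scaling by library size only (median −0.0836), and 0 to 4 calls with medians of −0.29 to −0.16 when 1 library was left out. For SUZ12 KO the same settings gave 3 with DESeq2 (MCM7 and POLE lower, TOP2A higher), 6 with only its own libraries (5 lower, TOP2A higher) and 3 with library size only (MCM7 lower, MKI67 at 0.49 and TOP2A at 0.54 higher; median −0.0107), and 0 to 3 calls with medians of −0.32 to −0.09 when 1 library was left out. For STAG1 KO there were 4 calls with DESeq2 (TTK, CCNA2, CCNE2 and KIF20A), 0 in a joint fit over experiments 1 to 3, and 0 to 1 with medians of −0.02 to 0.27 when 1 library was left out. For the knockdown, leaving out 1 library gave 3 to 12 calls and medians of −0.0884 to −0.0379, and edgeR on the recovered reads gave 9. The replicate numbers of the knockdown do not pair its libraries (correlations of deviations 0.0257, 0.0372 and 0.00402), and with the replicate block 10 of the 47 genes were called and the median stayed at −0.05. The contrast of STAG2 and STAG1 loss gave 0 to 1 calls without 1 library, that of EZH2 and SUZ12 loss 0 throughout, that of STAG2 and PRC2 loss 2 with DESeq2, 3 with library size only and 0 to 8 without 1 library, and that of the 2 STAG2 experiments 14 with DESeq2 and 0 to 8 without 1 library. For most of these settings the share of all genes called is not given. A change in calls among the 47 therefore cannot be told apart from a change among all genes. The causes of these shifts were not tested. In the isogenic pairs, the median moved from 1.52 to 1.44 in A4573 and stayed at −0.13 in SK-N-MC with scaling by library size only.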
